A study of Mus musculus with 12 samples.

Results

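Cytokine receptors were followed here through 10 chains expressed by helper T cells, Il2ra, Il2rb, Il2rg, Il7r, Il6ra, Il6st, Il21r, Il4ra, Ifngr1 and Il12rb1. They were taken by gene symbol from a fixed list, and all 10 were found among 25793 genes of the count table and in the FPKM table. RNA was sequenced from CXCR5-high, GFP-positive CD4 OT-II T cells of C57BL/6 background, 6 WT libraries (Pdcd1+/+) and 6 KI libraries (Pdcd1KI/KI), where the series asks how PD-1 affects follicular helper T (Tfh) cells. In both groups 500000 transduced OT-II cells and 500000 dsRed-expressing MD4 B cells were given to B6 recipients, which received HEL-OVA with LPS and alum under the skin, and lymph node cells were sorted at day 5. OT-II cells carry a transgenic receptor for an ovalbumin peptide and MD4 B cells one for hen egg lysozyme (HEL), so antigen-specific cells of both kinds meet in one node. All groups therefore share the OT-II receptor, the GFP vector and the immunization, each library stands for 100 to 200 sorted cells, and the labels describe neither the knock-in change nor the number of donor mice. Library titles give a genotype and a pair of numbers whose meaning is not stated. Libraries are written below as WT 1-1 and so on, with 3 libraries for each genotype and first number.

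Most of these chains belong to shared complexes. Il2rg encodes the common gamma chain used by the receptors for IL-2, IL-4, IL-7 and IL-21. In that order, these receptors add a further chain, Il2rb (with Il2ra for high affinity), Il4ra, Il7r or Il21r. Il6st encodes gp130, the signalling chain that pairs with Il6ra, while Ifngr1 and Il12rb1 bind interferon gamma and the shared p40 subunit of IL-12 and IL-23. All of them signal through Janus kinases and STAT proteins. In T cells, IL-6 and IL-21 acting through STAT3 are known to favour the Tfh fate, IL-2 acting through STAT5 opposes it, and IL-7 sustains resting and memory cells.

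Total gene counts were 717506 to 1801504 per library, and levels are given as CPM, counts scaled to the TMM-adjusted total of a library. Pdcd1 itself averaged 292 ± 151 CPM in the WT libraries and 70.0 ± 47.2 CPM in the KI libraries (SD, n = 6 each), with no overlap. Its log2 fold change was -2.05 (SE 0.42; edgeR adjusted p 0.231). With the first number as a block it was -2.24 (SE 0.22; edgeR adjusted p 7.62e-06), and within first numbers 1 and 2 it was -1.88 (edgeR adjusted p 0.0400) and -2.68 (edgeR adjusted p 0.00103). T cell markers (Cd3d, Cd3e, Cd3g, Cd4 and Cd28) summed to 3079 to 4291 CPM and 8 of 8 Tfh markers had counts, with Cxcr5 at 340 to 801 CPM but Bcl6 at only 1.27 to 17.4 CPM. Markers of other cells were present in every library, with sums over the 12 libraries of 116 to 337 CPM for B cell, 75.5 to 570 CPM for cytotoxic, 107 to 580 CPM for regulatory T cell and 1.24 to 229 CPM for myeloid lists. Of 7 myeloid markers Cd14 and Itgax were at 0 everywhere, of 8 B cell markers Pax5 was, and of 10 cytotoxic markers Ncr1 was. Among 5 regulatory T cell markers Lrrc32 was at 0 everywhere, and Foxp3 was above 0 in only 1 WT library, at 2.25 CPM. Nrp1, Ikzf2 and Ikzf4 therefore held nearly all of the regulatory T cell sums. WT 1-3 stood apart, with the fewest gene counts, the most unassigned reads (53.9%), 229 CPM of myeloid markers against 1.24 to 46.4 CPM in the other 11 libraries, and the highest sum of regulatory T cell markers. Without it the log2 fold changes for KI against WT given below became -1.21 for Il7r, 0.97 for Il12rb1, -0.67 for Il4ra, 0.01 for Il21r, 0.20 for Il2rb, 0.14 for Il2rg, -0.09 for Il6ra, 0.0019 for Il6st and 0.01 for Ifngr1, none of them called. In bulk libraries such as these, fewer cells of a type and less RNA per cell cannot be told apart.

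Levels of different genes were compared per length, on the FPKM scale of the authors. Il2rg was by far the most abundant chain, with 192, 222 and 308 FPKM as the lowest, median and highest of the 12 libraries. Il6ra came next, at 36.6, 51.8 and 63.0 FPKM, followed by Il2rb at 24.5, 39.7 and 52.6 FPKM. No library had as little Il2rg as any library had Il6ra, whereas the ranges of Il6ra and Il2rb overlapped and Il6ra was the higher in 9 of 12 libraries. A middle group was formed by Ifngr1, with a median of 22.3 FPKM, and Il6st, with 18.5 FPKM. Their order was not stable either, since Ifngr1 exceeded Il6st in 9 of 12 libraries. Il21r followed at a median of 8.92 FPKM, and Il12rb1, Il7r and Il4ra lay at 3.82, 3.32 and 2.33 FPKM. Il12rb1 exceeded Il7r in 7 and Il7r exceeded Il4ra in 8 of 12 libraries, so these 3 low chains had no clear order. Il2ra was lowest, with a median of 0.10 FPKM, and lay below Il4ra in 12 of 12 libraries.

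**Figure D1:**
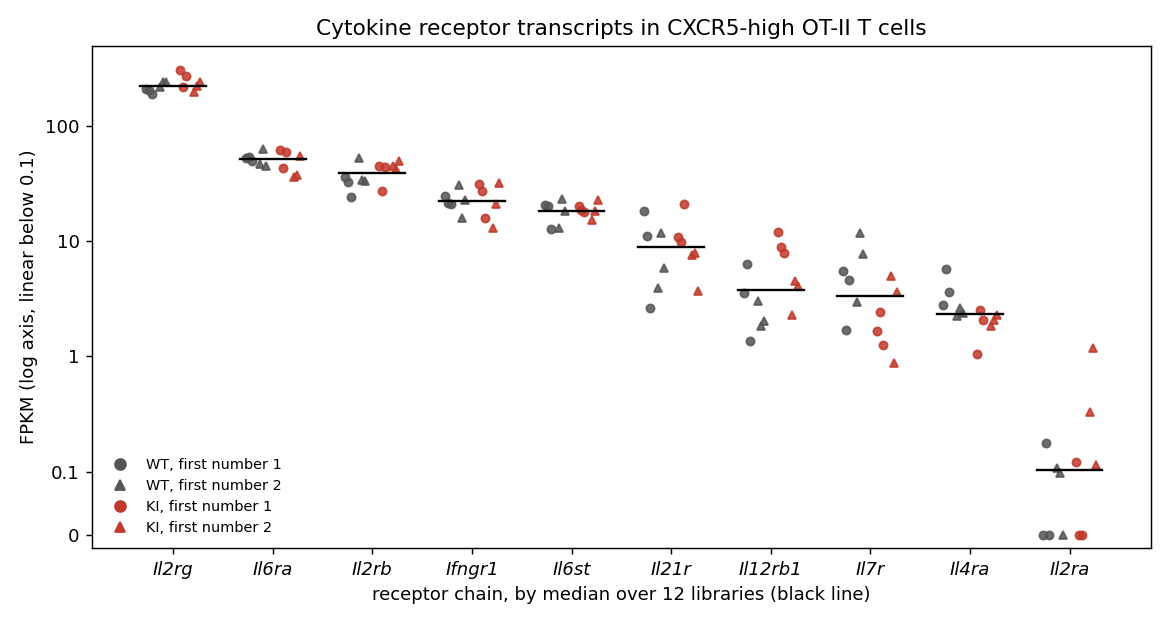
FPKM of the 10 receptor chains in each of 12 libraries (grey WT, red KI; circles first number 1, triangles first number 2), on a log axis that is linear below 0.1, with the median as a black line. Il2rg stands alone above 190 FPKM in this order, neighbouring chains from Il6ra to Il4ra overlap, and Il2ra is listed at 0 in 5 libraries.

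Within the IL-2 receptor the alpha chain was thus nearly absent while both signalling chains were present. Il2ra had 0 to 1 counts in the 6 WT libraries. In KI the counts were 1, 0 and 0 at first number 1 and 2, 13 and 1 at first number 2. Only KI 2-2, with 13 counts or 6.33 CPM, exceeded the floor of 3 counts. Il2ra was the only chain below the count filter and was compared on log2(CPM + 1). The mean was 0.41 in WT and 1.02 in KI, a difference of 0.61 (two-sided exact permutation p 0.240, where 0.0022 is the smallest possible). Without KI 2-2 the difference was 0.24. The regulatory T cell markers, which include the transcription factor Foxp3, were 4 of 5 detected in WT and 3 of 5 in KI, and summed to 177 to 580 CPM and 107 to 248 CPM. The highest WT sum came from WT 1-3, and the other 5 WT libraries held 177 to 285 CPM. Foxp3 itself was at 0 in every KI library and reached 2.25 CPM in 1 WT library.

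Across the 9 chains that passed the filter, none was called between KI and WT at an adjusted p under 0.05 (edgeR quasi-likelihood test over 7542 genes), against 0.0265% of all genes tested. An unadjusted p under 0.05 was found for 2 of the 9 chains, Il7r and Il12rb1, and for 5.40% of all genes. The chains did not shift together. Log2 fold changes were above 0 for 5 chains and below 0 for 4, with a median of 0.03 against 0.02 over all tested genes. In no chain were the libraries of one genotype all above those of the other, a separation seen in 0.371% of all genes. The fit used here leaves out the first number, and it did not call Pdcd1 either. With the first number as a block, which did call Pdcd1, 4 of 7542 genes and 0 of the 9 chains were called. The lowest edgeR adjusted p of a chain in the blocked fit was 0.510, for Il7r. Where the text gives a fold change it is KI relative to WT unless the first numbers are named.

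**Figure D2:**
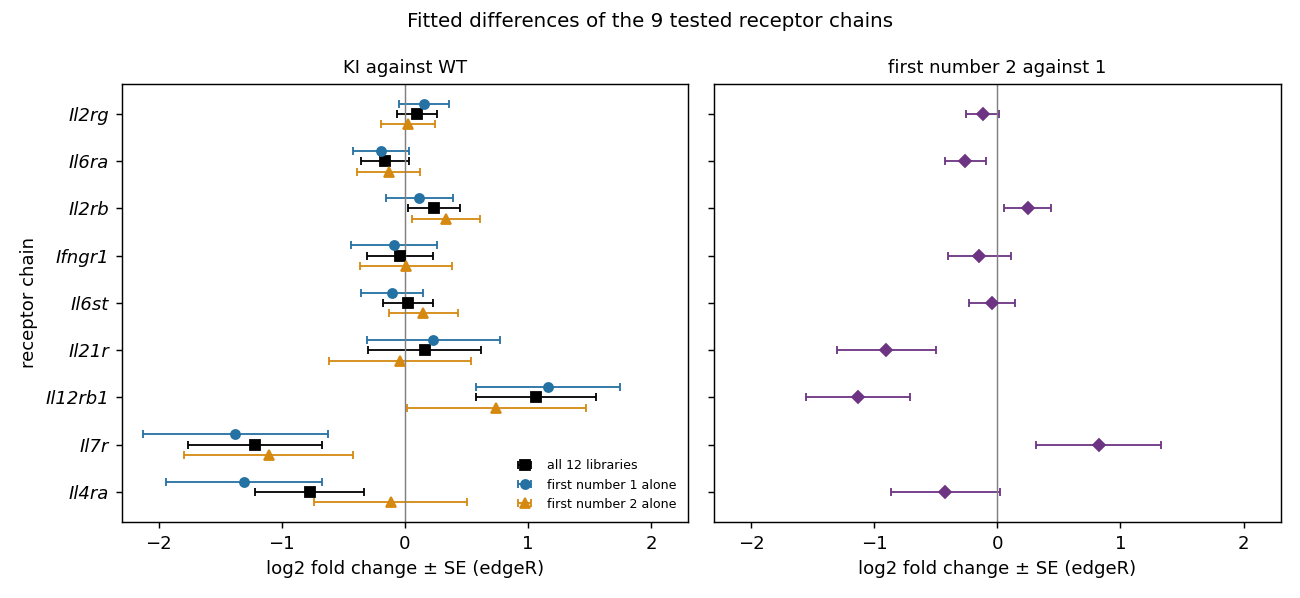
Log2 fold changes with SE for the 9 tested chains, KI against WT on the left (all 12 libraries, and each first number alone) and first number 2 against 1 on the right. The 5 chains of highest level stay within 0.24 of 0 for KI against WT with all libraries, whereas Il7r, Il4ra and Il12rb1 lie farther out with wide errors.

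The abundant signalling chains gave the tightest estimates. The WT libraries held 411, 471 and 546 CPM of Il2rg (lowest, median and highest) and the KI libraries 397, 505 and 565 CPM. These ranges overlap almost fully, and the log2 fold change was 0.10 (SE 0.16; edgeR adjusted p 0.964). Il2rb, the chain that carries the IL-2 signal together with the gamma chain, ranged over 117, 124 and 185 CPM in WT against 106, 156 and 208 CPM in KI. Its log2 fold change of 0.24 (SE 0.21) did not pass the test either (edgeR adjusted p 0.946). For Il6ra the WT libraries held 196, 256 and 311 CPM against 153, 229 and 269 CPM in KI, and the log2 fold change was -0.16 (SE 0.19; edgeR adjusted p 0.949). For its partner Il6st these were 93.5, 140 and 168 CPM against 121, 140 and 172 CPM, and the log2 fold change was 0.03 (SE 0.20; edgeR adjusted p 0.992). Neither IL-6 receptor chain separated the genotypes. Per library, the FPKM ratio of Il6ra to Il6st had a median of 2.69 in WT and 2.40 in KI, and that of Il2rg to Il2rb a median of 6.70 and 5.69. Ifngr1 ranged over 43.3, 68.3 and 84.1 CPM in WT against 45.3, 65.7 and 91.4 CPM in KI, and the log2 fold change was -0.04 (SE 0.27; edgeR adjusted p 0.991). Ifngr2, the partner chain of Ifngr1, was below the filter, with at most 6 counts in a library.

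Il7r had the largest fitted difference between the genotypes among the 9 chains. At first number 1 the WT libraries held 23.7, 9.44 and 26.8 CPM and the KI libraries 6.35, 11.2 and 5.50 CPM. At first number 2 they held 13.8, 50.6 and 32.5 CPM in WT and 27.4, 3.41 and 15.9 CPM in KI. 3 KI libraries were below every WT library, but 4 of 6 WT libraries lay within the KI range. The log2 fold change was -1.21 (SE 0.55; unadjusted p 0.0376, edgeR adjusted p 0.917 over 7542 genes). It was -1.38 (SE 0.75) within first number 1 and -1.11 (SE 0.69) within first number 2, and the interaction, 0.26 (SE 1.02), had an edgeR adjusted p of 0.986. These values rest on 7 to 90 counts per library. Resting T cell markers, 5 of 5 detected, summed to 706 to 1076 CPM in WT and 730 to 980 CPM in KI. Whether these markers bear on the Il7r values was not tested.

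The stretch before the Il7r start site is shown because Il7r had the largest of these differences. Il7r was also the only 1 of the 8 members searched that held a GAS pattern, the palindrome bound by STAT proteins. TTCNNNGAA was searched on both strands of RefSeq promoters (GRCm38.p6), from 250 bases before the start site to 50 after it, which were matched for 8 members, all but Il2rb and Il12rb1. It was found in 1 of these 8 and in 8.3% of 32851 promoters. Capitals mark the match, which starts 142 bases before the start site, in the 250 bases upstream of it at chr15:9529877-9530126, minus strand, written 5′ to 3′.
Il7r: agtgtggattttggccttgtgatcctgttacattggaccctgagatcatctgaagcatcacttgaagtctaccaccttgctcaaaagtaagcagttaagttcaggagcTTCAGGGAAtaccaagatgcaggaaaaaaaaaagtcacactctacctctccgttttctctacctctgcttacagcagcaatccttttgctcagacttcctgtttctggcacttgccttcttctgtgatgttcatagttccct
Of the other patterns searched, the ETS core GGAAG was found in 6 of 8 members and 71.4% of all promoters, the FOXO pattern TGTTTAC in 1 of 8 (Il21r) and 3.65%, and the AP-1 patterns TGACTCA or TGAGTCA in 0 of 8 and 5.2%. A GAS match can overlap an ETS core, and a match is a description of letters only.

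Il12rb1, the beta 1 chain shared by the IL-12 and IL-23 receptors, went the other way. At first number 1 the WT libraries held 13.3, 27.1 and 7.16 CPM and the KI libraries 41.3, 36.6 and 30.9 CPM. At first number 2 the values were 11.3, 6.75 and 7.55 CPM in WT and 11.2, 15.6 and 15.9 CPM in KI. All 3 KI libraries at first number 1 were above every WT library. Among the libraries of first number 2 only KI 2-1, at 11.2 CPM, fell below a WT library, WT 2-1 at 11.3 CPM. The share of all genes with such a separation at first number 1 was not counted. The separation, which rests on 3 KI libraries, is therefore not read as a result about Il12rb1. The log2 fold change was 1.06 (SE 0.49; unadjusted p 0.0419, edgeR adjusted p 0.917 over 7542 genes). Within the first numbers it was 1.16 (SE 0.59) and 0.74 (SE 0.73), and the interaction of -0.43 (SE 0.87) had an edgeR adjusted p of 0.966. Counts per library ran from 4 to 65. Il12rb2, the second chain of the IL-12 receptor, had at most 2 counts in any library, and Il23r, the second chain of the IL-23 receptor, had 0 in all.

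Il4ra, which binds IL-4, had the lowest median FPKM of the tested chains, in ranges that overlapped those of Il7r and Il12rb1. At first number 1 the WT libraries held 18.8, 44.8 and 34.0 CPM and the KI libraries 6.35, 18.6 and 14.4 CPM. These did not overlap, but lay at 18.8 against 18.6 CPM where closest. How many of all genes separate in this way within a first number was not counted, so this is not read as a result about Il4ra. At first number 2 the values were 15.1, 17.4 and 15.9 CPM in WT and 16.2, 12.7 and 15.9 CPM in KI, which overlapped. The log2 fold change was -0.77 (SE 0.44; edgeR adjusted p 0.938), with -1.31 (SE 0.64) at first number 1 and -0.11 (SE 0.62) at first number 2, and the interaction of 1.18 (SE 0.86) did not pass (edgeR adjusted p 0.834). B cells also carry Il4ra. B cell markers, 7 of 8 detected in each genotype, summed to 143 to 337 CPM in WT and 116 to 236 CPM in KI. Within that list Ms4a1, which encodes CD20, averaged 30.8 CPM in WT and 7.46 CPM in KI, and Cd79a, a part of the B cell receptor complex, 25.9 and 10.6 CPM, while Cd22 averaged 99.1 and 147 CPM. The part of B cell RNA in the Il4ra values was not tested.

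Il21r, which lies 23956 bases downstream of Il4ra on the same strand of chromosome 7 (mm9, GENCODE vM1), binds IL-21. At first number 1 the WT libraries held 64.2, 43.6 and 12.5 CPM and the KI libraries 34.9, 36.6 and 74.9 CPM, and at first number 2 they held 13.2, 39.9 and 19.6 CPM and 33.7, 24.8 and 13.2 CPM. The genotypes overlapped at both first numbers, and the log2 fold change was 0.16 (SE 0.46; edgeR adjusted p 0.975). Without WT 2-1 it was -0.0015 and without KI 1-3 it was -0.18, so its direction rested on single libraries. IL-21 is made by Tfh cells themselves. Its gene Il21 was the only 1 of 15 listed ligand genes to pass the filter, with 5.33 ± 3.20 CPM in the WT libraries against 7.64 ± 7.95 CPM in the KI libraries (SD, n = 6 each; log2 fold change 0.47, SE 0.79; edgeR adjusted p 0.964).

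**Figure D3:**
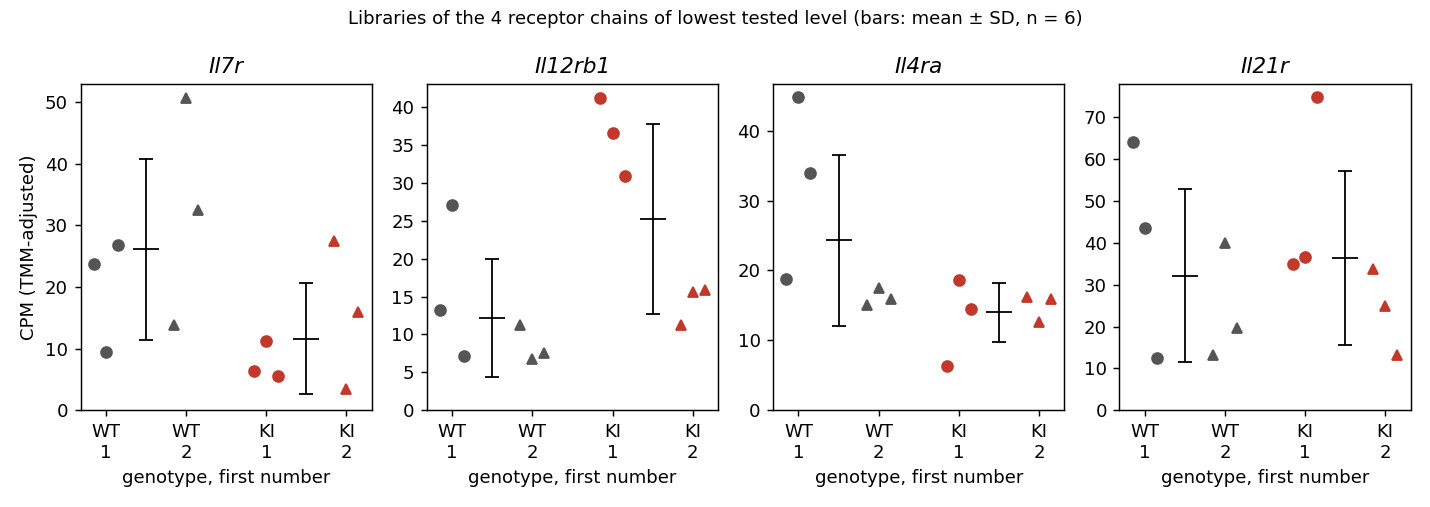
CPM of Il7r, Il12rb1, Il4ra and Il21r, the tested chains of lowest median FPKM, in each library by genotype and first number, with the mean and SD of the 6 libraries of a genotype as black bars. KI circles lie above all grey points for Il12rb1 and below all grey circles for Il4ra, while both colours overlap for Il7r and Il21r. The share of all genes that separate within a first number was not counted, so neither separation is read as a result about its chain.

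Between the first numbers, with genotype in the fit, none of the 9 chains was called either, against 16.0% of all genes tested (edgeR adjusted p under 0.05). Unadjusted p-values under 0.05 were found for 2 of the 9 chains and 30.4% of all genes, and no chain had all libraries of one first number above those of the other, as 6.48% of all genes did. Those 2 chains were Il12rb1 and Il21r, both lower at first number 2. Il12rb1 averaged 26.1 CPM at first number 1 and 11.4 CPM at first number 2, a log2 difference of -1.13 (SE 0.42; edgeR adjusted p 0.0729). It did pass with DESeq2 (adjusted p 0.0277) and without WT 1-3 (-1.28, edgeR adjusted p 0.0439). Il21r averaged 44.5 and 24.1 CPM, a log2 difference of -0.90 (SE 0.40; edgeR adjusted p 0.134). Il7r was the chain farthest in the other direction, with 13.8 and 23.9 CPM and a log2 difference of 0.82 (SE 0.51; edgeR adjusted p 0.287). Over the 9 chains the median log2 difference was -0.14, against 0.01 over all tested genes. Cytotoxic markers summed to 75.5 to 242 CPM at first number 1, with 7 of 10 detected and Gzma, Klrd1 and Ncr1 at 0, and to 226 to 570 CPM at first number 2, with 9 of 10 detected. Nkg7 was the largest part of these sums, averaging 78.8 and 328 CPM at first numbers 1 and 2. Ccl5 averaged 20.3 and 52.1 CPM, Cd8b1 10.8 and 31.7 CPM, and Klrb1c 8.56 and 27.3 CPM. Cd8a, Gzma, Gzmb, Prf1 and Klrd1 averaged at most 5.47 CPM at either first number. Some cytotoxic cells carry Il2rb, which averaged 133 and 159 CPM (log2 difference 0.25, SE 0.19, edgeR adjusted p 0.406). Whether the markers and the chains are related was not tested.

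For the interaction of genotype and first number 0 of the 9 chains were called, as were 0% of all 7542 genes (edgeR), and 544 genes but none of the chains had an unadjusted p under 0.05. DESeq2 called 7 genes for this term, none of them among the chains. In the lists, the smallest p-values for this term went with Il1r1 (1.25), Ifnar1 (0.81), Il27ra (-0.88) and Ifnar2 (-0.27) among receptor chains, and with Socs2 (6.02; edgeR adjusted p 0.233), Stat6 (1.16) and Ptpn2 (-0.92) among signalling genes.

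Other chains and the signalling genes downstream were taken as lists, and between KI and WT none of their tested genes was called. Of 28 other receptor chains 11 were tested, 3 with a log2 fold change above 0 and 8 below 0 (median -0.14), and 1 had an unadjusted p under 0.05. That was Il1r1, a receptor chain for IL-1, with 45.3 ± 40.4 CPM in the WT libraries against 19.7 ± 4.23 CPM in the KI libraries (SD, n = 6 each; log2 fold change -1.16, SE 0.48; edgeR adjusted p 0.914). Next among the lower chains came Il10rb, shared by the receptors of the IL-10 family (-0.43, SE 0.29; edgeR adjusted p 0.938), and the higher ones with the smallest p-values were Tgfbr3 (0.35, SE 0.50) and Il27ra (0.25, SE 0.44). Of 22 genes for JAK kinases, STAT factors and their regulators 18 were tested, 7 above 0 and 11 below 0 (median -0.06). Stat6, which serves IL-4, had a log2 fold change of 0.29 (SE 0.34; edgeR adjusted p 0.948). Socs2, a feedback inhibitor, had -2.27 (SE 0.97; edgeR adjusted p 0.917) with a WT mean of 91.9 ± 188 CPM (SD, n = 6), most of it from 265 counts in WT 1-3. Ptpn2, a phosphatase acting on JAKs and STATs, had -0.59 (SE 0.34; edgeR adjusted p 0.938).

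Between the first numbers, where 16.0% of all tested genes were called, 1 of the 11 other receptor chains was called. It was Tgfbr2, a TGF-beta receptor subunit, which rose from 247 ± 19.0 to 340 ± 51.8 CPM (SD, n = 6 each; log2 difference 0.46, SE 0.15; edgeR adjusted p 0.0376). Among the JAK, STAT and regulator genes 4 of 18 were higher and 5 were lower at first number 2, and whether this share differs from that of all genes was not tested. Jak1 and Jak2 rose, at log2 differences of 0.75 (SE 0.13) and 1.05 (SE 0.24), whereas Jak3, the kinase bound to the common gamma chain, and Tyk2 fell, at -1.10 (SE 0.24) and -0.95 (SE 0.31). Stat4, which transmits IL-12 signals, rose by 0.69 (SE 0.18), and Stat6 fell by 1.04 on the log2 scale (SE 0.24). Socs3, the feedback inhibitor that acts on gp130, fell from 57.9 ± 18.8 to 10.6 ± 3.53 CPM (SD, n = 6 each; log2 difference -2.43, SE 0.36; edgeR adjusted p 0.000119). Socs5 rose, at a log2 difference of 2.29 (SE 0.59), and Ptpn6, which encodes the phosphatase SHP-1, fell from 356 ± 50.6 to 204 ± 23.9 CPM (SD, n = 6 each).

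**Figure D4:**
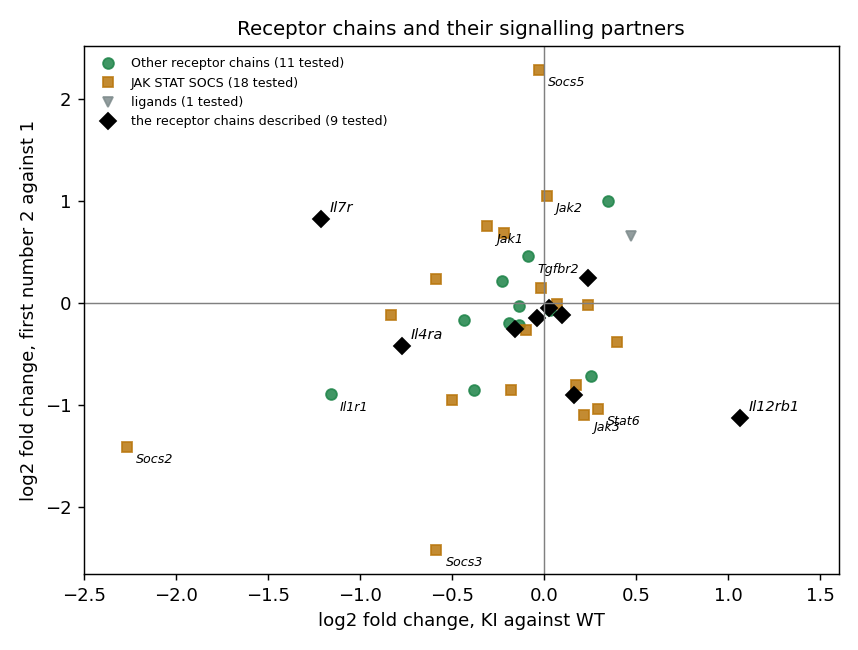
Log2 fold change for KI against WT (horizontal) and for first number 2 against 1 (vertical) of the 9 tested chains (black) and of the tested genes of 3 lists. The JAK, STAT and regulator genes spread more widely along the vertical axis, from Socs3 at -2.43 to Socs5 at 2.29, apart from Socs2. On that axis the black points stay between -1.13 and 0.82, and the other receptor chains between -0.90 (Il1r1) and 1.00 (Tgfbr3).

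Once the mean of each genotype and first number was removed, the tested genes whose log2 CPM ran most like Il2rg over the 12 libraries were Mir703 (Pearson r 0.92) and Zfp1 (0.91). For Il6ra they were Ankle2 (0.94) and Atp6v0e (0.93), and for Il2rb Mad2l2 (0.91) and AU040320 (0.89). These are the closest of 7542 genes over few libraries and are given as a description. Among the 36 pairs of tested chains r ran from -0.82 for Il21r with Ifngr1 to 0.84 for Il2rg with Il6ra.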

How the data were processed

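Raw read counts per gene symbol and FPKM values, as deposited by the authors, were used for all 12 libraries. Per the labels' protocols, polyA RNA of sorted cells was taken through an adapted single-cell method, so counts are reads and not molecules. The submitters' processing notes name CASAVA, TopHat2, Cufflinks, HTSeq and DESeq2 and the build mm9, with no versions or order. Which annotation was counted, and whether by strand, is not given in the sources used here. In GENCODE vM1 on mm9, Il2rg exons overlap those of Gm20489 on the same strand, and such reads could not be assigned to either gene here. FPKM rows that share a name were summed. The 5 summary rows of unassigned reads, 39.8% to 53.9% of a library, were left out.

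Counts were tested with edgeR 4.0.16 in R 4.3.3 (filterByExpr, which kept 7542 genes; TMM; glmQLFTest; Benjamini-Hochberg threshold 0.05), and SEs come from the fold change and F. CPM are TMM-scaled. Nothing in the labels says that libraries came from separate animals, so p-values measure the spread between libraries, which may be technical. No 2 libraries of a genotype agreed within sampling noise (chi-square per degree of freedom 8.58 or more). Results were recomputed with DESeq2 1.42.0, limma 3.58.1 (voom, or log2(FPKM + 1) and log2(FPKM + 0.1)), RLE or upper-quartile scaling, other filters, replicate blocks, each first number or genotype alone, and leaving out each library. The scripts were tested on simulated counts.

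Members, lists and tests were chosen with earlier results of these data known. Named genes are the 10 members, Pdcd1, list genes called in a fit or, where a fit called none, the 2 of smallest p in each direction, and the genes most like the 3 chains of highest CPM. Il12rb2, Il23r, Ifngr2 and single marker genes fall outside this rule and were chosen with their values known. Some genes that this rule names are not reported here.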

Additional observations from a re-analysis of the deposited data

Results flagged for a closer look

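Among 20 sets of 6 libraries (10 chains in each genotype), 2 held a library far from the others by Dixon's 95% criterion on the gap to the nearest library, and chance alone gives about 1. Il2rb stood at 185 CPM in WT 2-1, from 295 counts, against 133 CPM in the next WT library. Il12rb1 stood at 27.1 CPM in WT 1-2, from 23 counts, against 13.3 CPM in the next WT library.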

How the results depend on the processing

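No chain was called between KI and WT under any of the 24 alternatives, and Il7r, Il12rb1, Il4ra, Il2rb, Il2rg and Il6ra kept their direction in all that tested them. Il7r ran from -1.64 to -0.89 and Il12rb1 from 0.74 to 1.44, with adjusted p-values of at least 0.510 and 0.523. Chains of small fold change turned. Ifngr1 became 0.00046 with no filter and 0.0087 at first number 2 alone, Il6st -0.0016 with a mean of at least 50 counts and -0.10 at first number 1 alone, and Il21r -0.041 at first number 2 alone. Leaving out single libraries gave -0.16 to 0.053 for Ifngr1, -0.065 to 0.089 for Il6st and -0.18 to 0.49 for Il21r. Between the first numbers Il6st became 0.0100 with a mean of at least 50 counts, 0.0039 and 0.0036 on FPKM (pseudocounts 1 and 0.1), 0.080 in KI alone and -0.12 to 0.056 without single libraries, and Il4ra 0.19 in KI alone.

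The count of changed genes between KI and WT, 2, became 11 with DESeq2, 1 with limma-voom, 4 with no filter, 0 on FPKM with either pseudocount (459 and 461 unadjusted), 1 at first number 2 alone and 0 to 2 without single libraries (2 without WT 2-1, 1 without WT 2-2, WT 2-3 or KI 2-2, 0 without any other). As a replicate block the first title number gave 4, and both numbers gave 3. Pairs with both numbers alike had correlations of 0.08 to 0.26, not all over 0.1, so the numbers were not taken to pair the libraries. Pairs with only the first number considered averaged 0.17 where it was alike and -0.17 where it differed. Each gene was first centred on its genotype mean, which makes these averages near opposites, so the -0.17 is not a separate observation. Neither block changed the call of a chain, while Pdcd1 was called with the block by the first number (adjusted p 7.62e-06). The count between first numbers, 1208, became 795 on FPKM with pseudocount 0.1, 381 in WT alone, 359 in KI alone and 751 to 1252 without single libraries (751 without KI 2-2). The interaction count, 0, became 7 with DESeq2, 140 with no filter, 1 on FPKM with pseudocount 0.1 and 0 to 24 without single libraries (24 without WT 1-1). The causes were not tested. For Il2ra, under the filter, 15 alternatives kept p above 0.05, and counts of 3 or fewer in 11 of 12 libraries limit it.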
